A study of Mus musculus with 37 samples.

Results

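Complexins, synaptotagmins and the SNARE disassembly factor Napb were followed in mouse neurons in which the DNA demethylase Tet2 was deleted, targeted by a short hairpin RNA or overexpressed. The members were 10 genes (Cplx1, Cplx2, Cplx3, Syt1, Syt2, Syt4, Syt5, Syt7, Syt11 and Napb) picked by symbol out of 24411 genes, each listed in all 4 tables, and all 10 passed the filter on low values in every experiment. Polyadenylated RNA was sequenced in 37 libraries. In the nuclei experiment the RNA came from neuronal nuclei of the hippocampus of C57/Bl6 animals, either WT Tet2fl/fl (n = 4) or CamKIIaCreERT2;Tet2fl/fl, the conditional knockout (cKO, n = 3), so both groups carried floxed Tet2 alleles and differed by a Cre driven by the CamKIIa promoter. Primary cultures made at embryonic day 17 and infected with lentivirus, labelled shLuciferase (n = 6) or shTet2 (n = 6), form the first knockdown. A further set of neuronal cultures, labelled shLuc (n = 6) or Tet2 KD (n = 6) and with the mark 3d in its table columns, forms the second. Cultures labelled synGFP (n = 3) or Tet2 OE (n = 3) form the overexpression experiment. Strain was not given in the labels for the cultures of the last 2 experiments, nor were ages of the mice, and no label said that replicates came from separate cultures or animals, so the p-values measure only the spread between these samples.

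Release of neurotransmitter depends on SNARE proteins, which zip up between the vesicle and the plasma membrane and pull the membranes together. Synaptotagmins are vesicle proteins with C2 domains, and several of them bind calcium and trigger fusion, while complexins bind the assembled SNAREs and both hold them back and help them fire. After fusion the spent SNARE complex is taken apart by the ATPase Nsf with its adaptors, the SNAP proteins, of which Napb (beta-SNAP) is a brain form and Napa (alpha-SNAP) the widely expressed one. Tet2 oxidises methylated cytosines, mostly in CG dinucleotides, as a first step of their removal.

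Values are the authors' normalized counts, gene counts divided by 1 size factor per library, and each experiment was normalized and tested on its own. A gene is said to have changed, risen or fallen where limma's moderated test on log2(normalized count + 1) gave a Benjamini-Hochberg adjusted p under 0.05 over all genes of that experiment. Reads assigned to genes ranged from 2709421 to 73220675 per library, and the share taken by the ribosomal transcript Rn45s ranged from 0.0045% in a Tet2 OE library to 27.1% in a cKO library. Tet2 itself, the check of the labels, differed by -0.67 on the log2 scale between cKO and WT nuclei (exact two-sided permutation p = 0.0571, the smallest that 4 against 3 allows). Libraries labelled shTet2 did not have less of it than shLuciferase (log2 difference 0.21, exact permutation p = 0.61), with normalized counts of 314.9 to 671.9 against 167.4 to 719.9. Exons of Tet2 overlap those of the antisense gene model Gm42567. It was lower in the second knockdown by -1.51 (exact permutation p = 0.00216) and higher in the overexpression experiment by 1.20 (exact permutation p = 0.1, the smallest that 3 against 3 allows). Directions in the first knockdown therefore refer to the libraries as labelled. These are bulk samples, in which fewer cells of a type and less RNA per cell cannot be told apart.

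**Figure D1:**
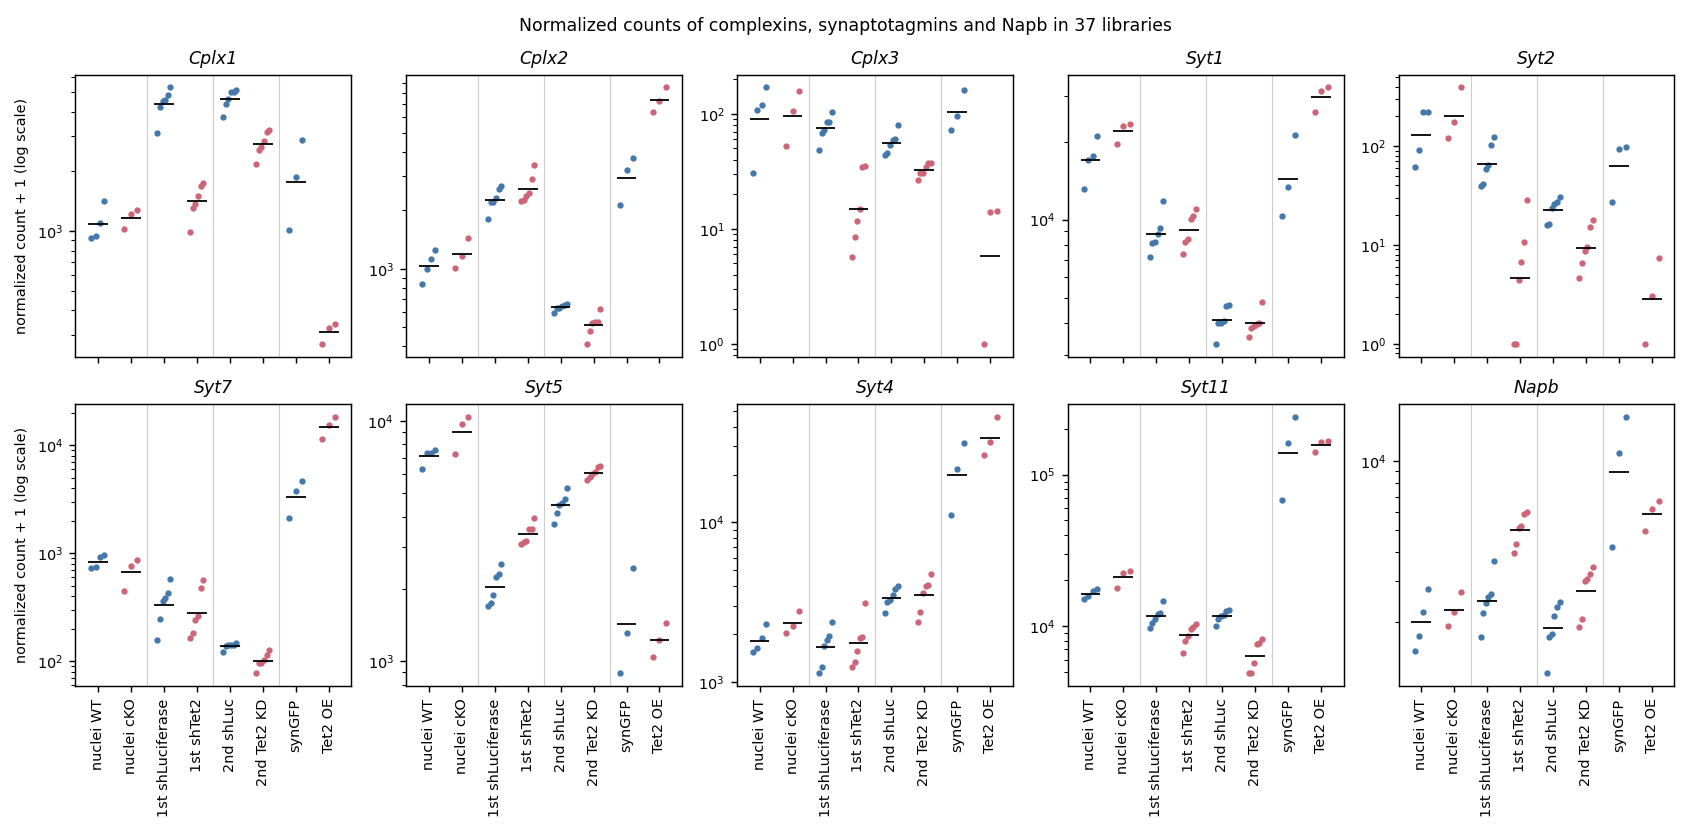
Normalized count plus 1 (log axis) of each of the 10 genes in all 37 libraries. Each point is 1 library, blue for control and red for treated groups, and the black line is the geometric mean; Cplx1, Cplx3 and Syt2 have no library labelled shTet2 that reaches the lowest shLuciferase library. Levels are comparable within an experiment only, since each table was normalized separately.

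Per kilobase of exon, which allows genes to be set side by side, Syt11 had the highest mean level of the 10 genes in every group except the Tet2 KD cultures, where Syt5 was first. In WT nuclei the means fell from 3153 ± 226 normalized counts per kilobase for Syt11 (SD, n = 4) through 2998 ± 247 for Syt5 and 2061 ± 391 for Syt1 to 502.3 ± 104 for Cplx1. The ranges of Syt11 and Syt5 overlapped in WT nuclei, as did those of the neighbours from Cplx1 through Syt4 (471.8) and Napb (290.7) to Cplx2 (213.0). At the bottom, Syt7 stood at 112.9, and Cplx3 (35.7) overlapped Syt2 (19.4). The shLuciferase cultures had a different order, with Cplx1 second at 2029 ± 339 (n = 6), overlapping Syt11 at 2242 ± 332. Syt1 (1065) and Syt5 (869.0) followed and overlapped, as did Cplx2 (464.2), Syt4 (437.3) and Napb (358.0), while Syt7, Cplx3 and Syt2 stood at 48.1, 25.9 and 9.24. In the shLuc cultures Syt11 (2234 ± 195), Cplx1 (2128 ± 244) and Syt5 (1881 ± 218) overlapped as neighbours, and Syt2 was last at 2.90. In the synGFP cultures Syt11 reached 30189.9 ± 16717 per kilobase (n = 3) and Syt4 5527 ± 2620, with Syt2 last at 9.36.

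Of the 10 genes, none changed in the nuclei by limma, edgeR or DESeq2, against 0.0% of the 18780 genes tested by limma, and the lowest unadjusted limma p was 0.0921. The first knockdown had 4 changed genes, Napb and Syt5 upward and Cplx1 and Syt2 downward, where the background was 1.93% of 18315 genes (0.655% higher and 1.28% lower). The second knockdown had 8 changed genes, Napb and Syt5 upward and Cplx1, Cplx2, Cplx3, Syt2, Syt7 and Syt11 downward, where the background was 25.9% of 16164 genes (12.6% higher and 13.2% lower). In the overexpression experiment Syt7 rose and Cplx1 fell, where the background was 9.96% of 22399 genes (6.19% higher and 3.77% lower). The overexpression groups also differed in depth, with 16988077 to 48321564 reads in synGFP and 66684922 to 73220675 in Tet2 OE, and in the share of Rn45s, 0.0607% to 0.411% and 0.0045% to 0.0066%, both without overlap, and the part of this in the changes was not tested. The median log2 change of the 10 genes was 0.27 in nuclei, -0.09 in the first knockdown, -0.38 in the second and -0.02 under overexpression, beside medians over all genes of -0.09, 0.09, -0.02 and -0.75.

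**Figure D2:**
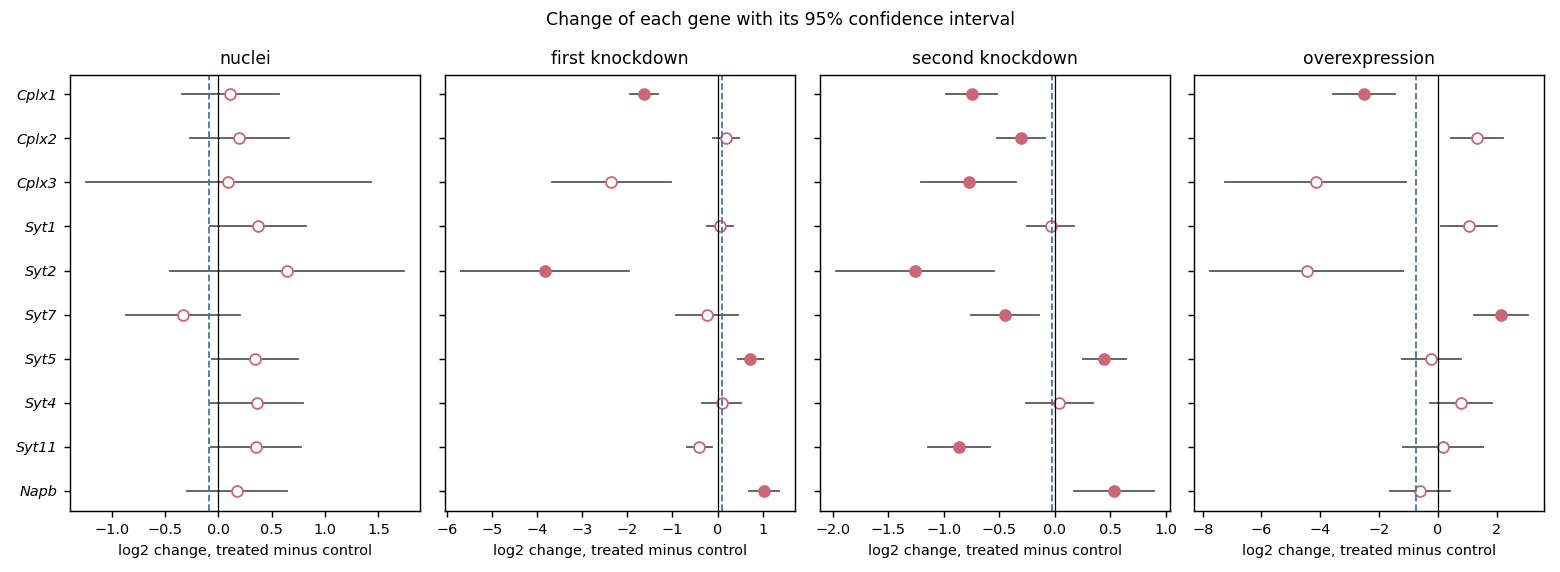
Log2 change, treated minus control, of each gene in the 4 experiments (points) with its 95% confidence interval from limma (lines), each panel on its own scale. Filled points passed an adjusted p of 0.05, open points did not, and the dashed blue line is the median of all genes tested, -0.75 under overexpression.

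Cplx1, a complexin of fast synchronous release, was lower in the treated libraries of all 3 culture experiments. In shLuciferase cultures its normalized counts were 3115 (lowest), 4561 (median) and 5300.0 (highest). In libraries labelled shTet2 they were 993.9, 1444 and 1757. The groups did not overlap, and the means of 4442 ± 742 and 1438 ± 276 (SD, n = 6 each) lay a log2 change of -1.63 apart (SE 0.15, adjusted p = 4.6e-06), which is 3.10-fold.

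Cplx1 fell again in the second knockdown, from 3741, 4818 and 5147 (lowest, median, highest) in shLuc to 2191, 2755 and 3249.5 in Tet2 KD. No Tet2 KD library reached the lowest shLuc library, and the log2 change was -0.75 (SE 0.11, adjusted p = 5.11e-05, n = 6 each). Under overexpression the synGFP libraries held 2895, 1883 and 1019 normalized counts and the Tet2 OE libraries 340.7, 270.5 and 326.5. All Tet2 OE libraries lay below all synGFP libraries, with a log2 change of -2.51 (SE 0.51, adjusted p = 0.0039, n = 3 each). Without synGFP library 5 this adjusted p was 0.0598, and over 16 alternative settings it ranged from 8.42e-06 to 0.392, the highest with the library number as a block. In nuclei Cplx1 stood at 1419.6, 1104, 949.7 and 924.8 in WT and 1223, 1027 and 1278 in cKO, which overlapped (log2 change 0.11, 95% interval -0.34 to 0.57).

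The fall of Cplx1 was smaller in the second knockdown than in the first. The difference of the log2 changes, second minus first, was 0.88 (SE 0.19, adjusted p = 0.0143 over 15796 genes, of which 1.83% differed, 0.905% upward and 0.924% downward), and it stayed between 0.78 and 0.98 over 28 alternative settings, with adjusted p of 0.00374 to 0.0359. Cplx1 was the only one of the 10 genes whose change differed between the knockdowns by this test. Tet2 differed as well, by -1.72 (adjusted p = 0.0256).

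Cplx2, the other main complexin of forebrain neurons, did not follow Cplx1. Cplx2 lay at 1796 to 2661 in shLuciferase and 2243 to 3416 in libraries labelled shTet2, which overlapped (log2 change 0.18, 95% interval -0.11 to 0.47, adjusted p = 0.569). It fell in the second knockdown, from 594.8, 637.1 and 657.1 (lowest, median, highest) to 410.4, 528.8 and 623.5 (log2 change -0.30, SE 0.11, adjusted p = 0.0382, n = 6 each). The groups overlapped, and leaving out any one of 9 of the 12 libraries (shLuc 2, 3, 7, 8 or 9, Tet2 KD 5, 10, 11 or 12) brought the adjusted p above 0.05, up to 0.0771, with the lowest of all alternatives at 0.0132. Under overexpression Cplx2 stood at 2126, 3723 and 3214 in synGFP and 6379.9, 7322 and 8569.9 in Tet2 OE. The groups did not overlap, but the log2 change of 1.33 missed the threshold (SE 0.42, adjusted p = 0.0526, n = 3 each). It passed with a pseudocount of 4, a stricter filter, TMM factors, edgeR and DESeq2, within a range of 0.0165 to 0.392 over 16 settings.

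Cplx3, a complexin best known from ribbon synapses and subplate neurons, was sparse. Its normalized counts were 47.8, 77.6 and 103.5 (lowest, median, highest) in shLuciferase and 4.63, 12.4 and 34.0 in libraries labelled shTet2, resting on 2 to 41 reads in the latter. The groups did not overlap, yet the log2 change of -2.35 missed the threshold (SE 0.64, adjusted p = 0.0617, n = 6 each). It passed with edgeR (adjusted p = 0.049), DESeq2, a pseudocount of 4, a stricter filter and without shTet2 library 3, over a range of 0.000274 to 0.134. Cplx3 fell in the second knockdown from 42.6, 55.0 and 79.0 to 25.4, 31.7 and 36.2, again without overlap (log2 change -0.78, SE 0.21, adjusted p = 0.00878). Under overexpression it was at 95.3, 71.9 and 161.4 in synGFP and at 13.4, 0.0 and 12.9 in Tet2 OE, also without overlap (log2 change -4.16, SE 1.46, adjusted p = 0.0767), and it passed with DESeq2 (adjusted p = 0.0209, over a range of 0.0209 to 0.392). In nuclei the WT libraries spread from 29.3 to 168.6 and the cKO libraries from 51.7 to 156.5.

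Because a ratio within a library does not depend on how the library was scaled, Cplx1 was also set against Cplx2 per kilobase of exon. This ratio was chosen after the values were seen, as was that of Napb to Napa given later, so both are given as a description with no test. In the first knockdown the ratio was 4.43 ± 0.89 in shLuciferase (3.04 to 5.68) and 1.25 ± 0.17 in libraries labelled shTet2 (0.998 to 1.50; SD, n = 6 each), without overlap. The second knockdown had a ratio of 16.5 ± 1.6 in shLuc and 12.2 ± 1.6 in Tet2 KD, where the highest Tet2 KD library (14.6) passed the lowest shLuc library (14.2). Under overexpression the synGFP libraries lay between 0.714 and 3.07 and the Tet2 OE libraries between 0.0832 and 0.120, a 14.3-fold difference of the geometric means. In nuclei the ratio was 2.41 ± 0.63 in WT and 2.22 ± 0.20 in cKO, with overlap.

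**Figure D3:**
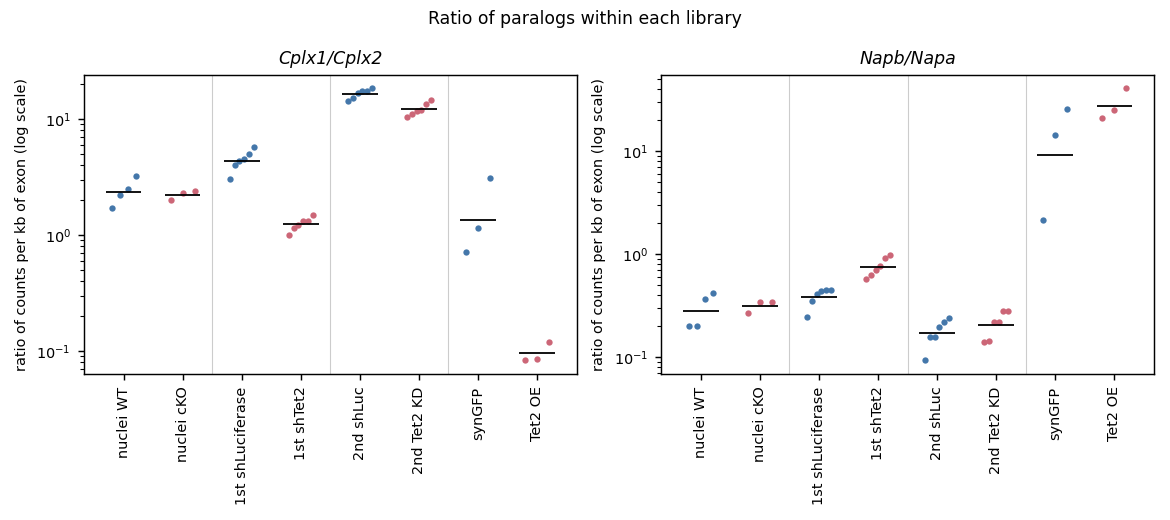
Ratio of Cplx1 to Cplx2 (left) and of Napb to Napa (right), both per kilobase of exon, in each of the 37 libraries on a log axis. Each point is 1 library, blue for control and red for treated groups, and black lines are geometric means; Cplx1/Cplx2 in libraries labelled shTet2 does not exceed 1.50, below the lowest shLuciferase library at 3.04.

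Among the synaptotagmins of fast release, Syt2, the calcium sensor typical of hindbrain synapses and fast-spiking interneurons, was the member with the lowest level per kilobase in every group, and it had the most negative log2 change of the 10 genes in each culture experiment. In shLuciferase it stood at 38.4, 60.3 and 123.4 (lowest, median, highest). In libraries labelled shTet2 it stood at 0.0, 4.60 and 27.8, on 0 to 17 reads per library, and 2 of these 6 libraries had none. The groups did not overlap, with a log2 change of -3.83 (SE 0.89, adjusted p = 0.0264, n = 6 each), a value that depends on the pseudocount at such low counts. The adjusted p rose above 0.05 without shLuciferase library 2, 3 or 4 or shTet2 library 1 or 2, with no filter on low values and with a block, and it ranged from 0.000266 to 0.0725 over 22 settings.

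Syt2 fell in the second knockdown from 14.7, 23.6 and 29.7 to 3.61, 8.05 and 16.8, and the highest Tet2 KD library overlapped the shLuc range (log2 change -1.26, SE 0.34, adjusted p = 0.00998, n = 6 each). Under overexpression the synGFP libraries held 96.6, 91.5 and 26.2 and the Tet2 OE libraries 2.06, 6.44 and 0.0. All Tet2 OE libraries were below all synGFP libraries, but the log2 change of -4.47 did not pass (SE 1.56, adjusted p = 0.0755). It passed with DESeq2 (adjusted p = 0.0104), over a range of 0.0104 to 0.4. In nuclei Syt2 ran from 60.4 to 221.8 in WT and from 118.7 to 391.4 in cKO, with a wide interval of the log2 change (0.64, 95% interval -0.46 to 1.74).

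The promoters of Cplx1, Cplx3 and Syt2 are shown because these were the members lower in treated libraries of all 3 culture experiments. Cplx3 did not pass the threshold in the first knockdown or under overexpression, nor did Syt2 under overexpression. Each line gives 250 bases ending just before a RefSeq start of the gene (build GRCm38.p6), written 5′ to 3′ on the gene's strand, with every CG in capitals. The windows are chr5:108550028-108550277 (minus strand) for Cplx1, chr9:57606282-57606531 (minus strand) for Cplx3 and chr1:134709050-134709299 (plus strand) for the downstream of the 2 Syt2 starts. The first overlaps an exon of the gene model Gm43364 in GENCODE, and the other two overlap no annotated exon.
Cplx1: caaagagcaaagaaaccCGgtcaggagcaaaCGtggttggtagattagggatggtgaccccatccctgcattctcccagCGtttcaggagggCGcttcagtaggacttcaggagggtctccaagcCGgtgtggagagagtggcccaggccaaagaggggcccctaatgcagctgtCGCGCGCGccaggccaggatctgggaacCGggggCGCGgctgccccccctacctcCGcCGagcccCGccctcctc
Cplx3: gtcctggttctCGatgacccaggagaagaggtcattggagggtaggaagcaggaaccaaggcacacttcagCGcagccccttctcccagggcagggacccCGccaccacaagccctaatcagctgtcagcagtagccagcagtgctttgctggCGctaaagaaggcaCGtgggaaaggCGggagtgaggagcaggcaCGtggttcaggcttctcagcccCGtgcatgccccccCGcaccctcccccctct
Syt2: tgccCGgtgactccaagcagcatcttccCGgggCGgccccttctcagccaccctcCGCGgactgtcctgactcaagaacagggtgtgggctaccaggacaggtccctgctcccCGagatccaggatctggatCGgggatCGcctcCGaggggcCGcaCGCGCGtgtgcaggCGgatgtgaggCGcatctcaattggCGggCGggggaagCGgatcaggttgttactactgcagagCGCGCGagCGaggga
Over 32851 RefSeq promoters of the same length the median was 6 CG, with quartiles of 2 and 16. The Cplx1 window holds 15 CG, the Cplx3 window 9 and this Syt2 window 22, while the window of the upstream Syt2 start holds 30. Windows were found for 7 members, and the others held 5 CG at one Syt1 start and 8 at the other, 7 for Cplx2, 9 for Syt11 and 11 for Napb. The Cplx2 start and the upstream Syt2 start were not matched to a GENCODE transcript of their gene. The Cplx2 and upstream Syt2 windows overlap exons of the gene models Gm48623 and Gm26783. These counts may therefore not be those of the promoters in use. The upstream Syt2 window ends at base 134646611, before the GENCODE start of Syt2 at 134646677. The Syt11 window (88772600 to 88772849) lies inside the GENCODE gene, whose 5′ end is at 88775164, and overlaps a Syt11 exon. The windows of Cplx1, Cplx3 and Syt2 held from 9 to 30 CG, a range that also takes in Syt11 and Napb. Napb rose in both knockdowns. Syt11 and Cplx2 fell in the second knockdown, and the Cplx2 window lies below this range. Methylation was not measured in these libraries, and a link between CG counts and the changes was not tested.

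Syt1, the main calcium sensor of synchronous release in the forebrain, was level in both knockdowns. It stood at 7144 to 11793 normalized counts in shLuciferase and 7369 to 10973 in libraries labelled shTet2 (log2 change 0.06, 95% interval -0.23 to 0.34). Its ranges in the second knockdown were 3315 to 4701 and 3508 to 4820.1 (log2 change -0.04, 95% interval -0.25 to 0.18). Under overexpression Syt1 stood at 10316, 13404 and 21124 in synGFP and 25962, 31262 and 32404 in Tet2 OE, without overlap, and the log2 change of 1.06 did not pass (SE 0.46, adjusted p = 0.145). Without synGFP library 6 its adjusted p was 0.0491, over a range of 0.0491 to 0.534.

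Syt5, a calcium-binding synaptotagmin of secretory vesicles, moved opposite to Cplx1 in both knockdowns. In shLuciferase it stood at 1691, 2059 and 2545 (lowest, median, highest), and in libraries labelled shTet2 at 3079, 3343 and 3947, without overlap (log2 change 0.73, SE 0.13, adjusted p = 0.00427, n = 6 each). It rose in the second knockdown from 3721, 4501 and 5252 to 5679, 6059 and 6496, again without overlap (log2 change 0.45, SE 0.09, adjusted p = 0.00134). The change was past the threshold in every alternative run in both knockdowns, with adjusted p at most 0.0172 and 0.00468. Under overexpression Syt5 ran from 894.5 to 2450.4 in synGFP and from 1038 to 1445 in Tet2 OE, which overlapped. In nuclei the WT libraries held 7588, 7340.0, 6274 and 7343 and the cKO libraries 7251, 9698 and 10410.2, and the log2 change of 0.34 did not pass (adjusted p = 0.759).

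Syt7, the high-affinity sensor of asynchronous release and facilitation, rose under overexpression. The synGFP libraries held 2118, 3800.2 and 4654 and the Tet2 OE libraries 15556, 11443 and 18558, without overlap (log2 change 2.15, SE 0.44, adjusted p = 0.0045, n = 3 each). Without synGFP library 5 its adjusted p was 0.0561, over a range of 8.69e-05 to 0.392. In the second knockdown it fell from 121.3, 139.8 and 145.8 to 76.7, 98.5 and 124.7, and the highest Tet2 KD library passed the lowest shLuc library (log2 change -0.45, SE 0.15, adjusted p = 0.029). That call was lost without shLuc library 3, 7 or 9 or Tet2 KD library 12, over a range of 0.00612 to 0.0703. Syt7 in the first knockdown spread from 157.1 to 579.1 in shLuciferase and 162.6 to 563.0 in libraries labelled shTet2 (log2 change -0.24, 95% interval -0.93 to 0.45). Exons of Syt7 overlap those of the antisense gene model Gm26859, and exons of Syt4 those of Gm26658; the strand setting of the counting was not given in the sources used here, so values of Syt4 and Syt7 are uncertain to that extent.

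Syt4 and Syt11 are synaptotagmins that carry a substitution in the calcium site of a C2 domain and do not act as sensors of fast release. Syt4 was level in both knockdowns, with log2 changes of 0.09 (95% interval -0.34 to 0.53) and 0.04 (95% interval -0.26 to 0.35), and its groups overlapped in all 4 experiments. Syt11 ran from 9692 to 14599 in shLuciferase and from 6667 to 10321 in libraries labelled shTet2, and its log2 change of -0.40 missed the threshold (SE 0.13, adjusted p = 0.15). Syt11 fell in the second knockdown from 9961, 11709 and 12756 (lowest, median, highest) to 4895, 6650.4 and 8207, without overlap (log2 change -0.87, SE 0.13, adjusted p = 8.48e-05, n = 6 each). The difference between the knockdowns did not pass for Syt11 (-0.46, SE 0.19, adjusted p = 0.22).

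In nuclei Syt11 was the one member whose groups did not overlap, at 17661, 15771, 17111 and 15109.6 in WT and 17704, 23021 and 22521 in cKO, where 6.96% of all genes did not overlap (3.55% higher and 3.41% lower). Its lowest cKO library was 17704 against a highest WT library of 17661, and the log2 change of 0.35 did not pass (SE 0.20, adjusted p = 0.76). Groups did not overlap for 5 members in the first knockdown (3 lower and 2 higher, background 2.25%, of which 1.39% lower and 0.863% higher). They did not overlap for 4 in the second (3 lower and 1 higher, background 12.2%, 6.53% lower and 5.7% higher) and for 6 under overexpression (3 lower and 3 higher, background 31.4%, 19.0% lower and 12.5% higher). Under overexpression Syt11 held 68325, 160858 and 242232 (synGFP) and 163907, 141517 and 166801 (Tet2 OE), and its direction depended on scaling, 0.18 with the deposited factors (adjusted p = 0.873) and -0.53 with library totals (adjusted p = 0.0407, the lowest of a range up to 0.998).

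Napb rose in both knockdowns. It stood at 1709, 2488 and 3666 (lowest, median, highest) in shLuciferase and at 3959, 5147 and 5978 in libraries labelled shTet2. Every library labelled shTet2 was above every shLuciferase library, and the means of 2524 ± 650 and 5083 ± 807 (SD, n = 6 each) differed by a log2 change of 1.03 (SE 0.16, adjusted p = 0.00101). Napb went in the second knockdown from 1193, 1935 and 2423 to 1885, 3036 and 3447, with overlap (log2 change 0.53, SE 0.17, adjusted p = 0.0268). That call was lost with library totals and without shLuc library 3, 7 or 8 or Tet2 KD library 5, 10, 11 or 12, over a range of 0.00811 to 0.0627. The difference between the knockdowns did not pass (-0.50, SE 0.25, adjusted p = 0.323).

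Under overexpression Napb was at 4218, 10774 and 15609 in synGFP and 4938, 6687 and 6203 in Tet2 OE, with overlap and a log2 change of -0.60 (SE 0.49, adjusted p = 0.433). With library totals this became -1.30 (adjusted p = 0.00432), the lowest of a range up to 0.851. Relative to Napa per kilobase, Napb went from 0.389 ± 0.079 in shLuciferase to 0.759 ± 0.157 in libraries labelled shTet2 (SD, n = 6 each), without overlap. In the second knockdown the ratio was 0.177 ± 0.054 and 0.214 ± 0.062, under overexpression 14.1 ± 11.7 and 29.0 ± 10.7, and in nuclei 0.297 ± 0.114 and 0.317 ± 0.042, each with overlap.

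The other genes of vesicle release were counted over 5 lists with 82 genes. In nuclei none of the 78 tested changed by limma, edgeR or DESeq2, and 9 had an unadjusted limma p under 0.05, as had 1309 of all 18780 genes. In the first knockdown 1 rose and 5 fell of 79 tested, beside 0.655% and 1.28% of all genes. The one that rose was Vamp4, a SNARE of endosomal and bulk membrane traffic (623.2 ± 70.9 to 1026 ± 210, SD, n = 6 each, log2 change 0.70, adjusted p = 0.031). Those that fell were Syt6 (622.1 ± 95.8 to 244.0 ± 94.5, log2 change -1.45, adjusted p = 0.00433), the active zone scaffold Bsn (-0.70), the vesicle proteins Syngr3 (-0.94) and Syn2 (-0.70), and Rab3b (-1.09). The median log2 change of the lists ran from -0.23 for docking and priming to 0.06 for SNARE disassembly, beside 0.09 over all genes.

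In the second knockdown 13 rose and 17 fell of 77 tested, beside 12.6% and 13.2% of all genes. Vamp4 rose again (0.79), and so did the SNARE Stx2 (0.62) and the C2 proteins Doc2a (0.58) and Doc2g (0.70). The plasma membrane SNARE Stx1a fell (3513 ± 282 to 2334 ± 297, SD, n = 6 each, log2 change -0.60, adjusted p = 0.000157), and Nsf, the partner of Napb, fell by 0.49 on the log2 scale. Docking and priming genes had 5 falls of 23 tested, among them Bsn (-0.58), the syntaxin-binding Stxbp5 (-0.58) and the priming factor Cadps (-0.54). Among vesicle and Rab3 genes 5 rose and 6 fell of 17, the falls including Syn3 (-0.81), Syngr3 (-0.56) and Synpr (-0.69), and Syt17 fell by 0.65 on the log2 scale. Of the 6 genes called in the first knockdown, all but Syt6 were called in the same direction in the second, with Rab3b (-0.41, adjusted p = 0.0116) and Syn2 (-0.82, adjusted p = 0.0133) beside Bsn, Syngr3 and Vamp4.

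Under overexpression 13 rose and 6 fell of 81 tested, beside 6.19% and 3.77% of all genes, and the split moved to 7 and 12 with library totals, where the median over all genes was -1.32 in place of -0.75. Vamp4 rose by 2.82 on the log2 scale (611.2 ± 191 to 4230 ± 732, SD, n = 3 each, adjusted p = 0.000453), Napg, the gamma-SNAP, by 2.34, Pclo, a large active zone scaffold, by 2.35, and Syt6 by 2.39. Cadps (2.14), Stx3 (1.63), Rab3c (2.30), Syn2 (1.91) and Syn3 (1.91) also rose. Napa fell by 2.17 on the log2 scale (591.5 ± 395 to 117.5 ± 37.3, adjusted p = 0.0422), and the priming factor Unc13a (-2.41) fell too. Vamp4 was higher in treated libraries of all 3 culture experiments, while Syt6 fell in the first knockdown and rose here.

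**Figure D4:**
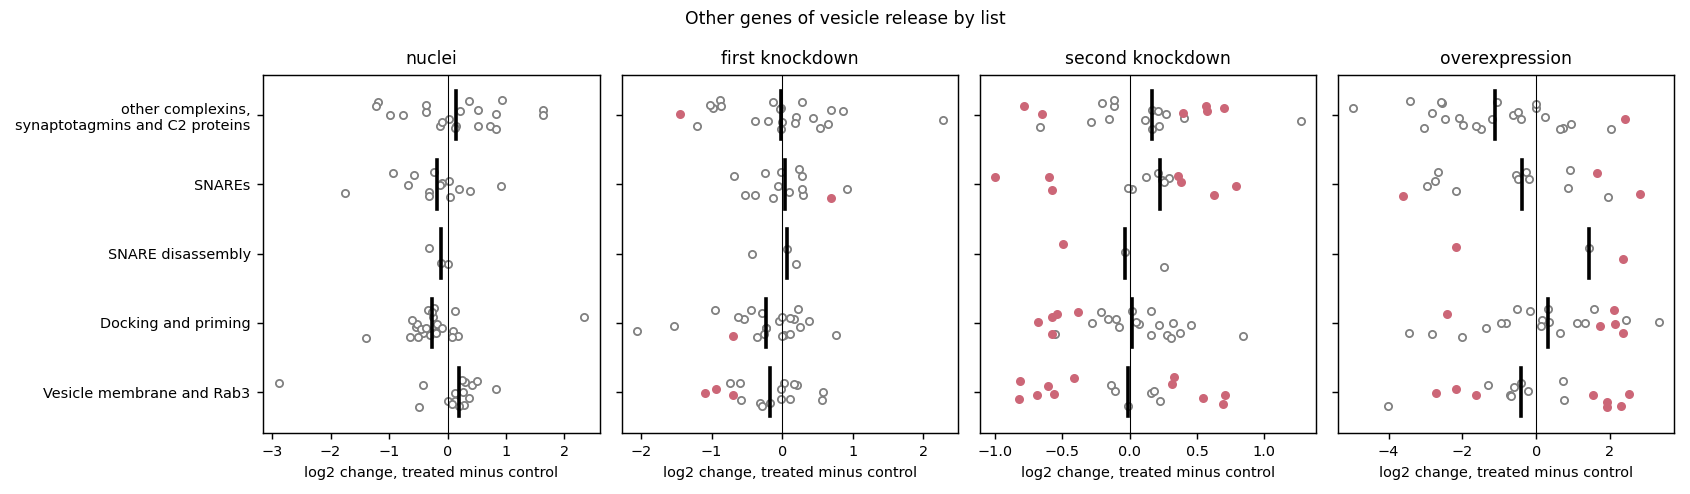
Log2 change, treated minus control, of the other genes of vesicle release in 5 lists and 4 experiments, each panel on its own scale. Each point is 1 gene, filled red where its adjusted p was under 0.05; black bars are list medians. The nuclei panel has no filled point, and in the second knockdown 13 filled points lie to the right of 0 and 17 to the left.

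Over the 37 libraries, after subtracting each table's mean, the genes most like Cplx1 among 8496 genes were Slc25a22 (Pearson's r 0.88), Pcbp3 (0.87) and Cep170b (0.86). The genes most like Syt1 were Scn2a1 (0.86), Hsp90b1 (0.85) and Lrrc4c (0.85), and among those most like Napb were Lmbrd1 (0.71) and Psmb7 (0.70). Cplx1 and Cplx2 had r = -0.50, and Cplx1 and Syt1 r = -0.53. These describe libraries that share treatment groups and tables, and the groups with the widest spread weigh most.

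The labelled cell type was checked against marker genes. In all 4 experiments all 5 neuronal markers were present, and their summed normalized counts were 5966 to 6393 in WT and 5470.0 to 7554 in cKO nuclei. In the same nuclei astrocyte markers summed to 3974 to 5694 (WT) and 3017 to 4192 (cKO), and oligodendrocyte markers to 3681 to 8087 and 4898 to 6215. The neuronal markers summed to 8968 to 10509 in shLuciferase and 8304 to 9425 in libraries labelled shTet2, where Tubb3 fell by 0.67 on the log2 scale (adjusted p = 0.00516). No other neuronal marker changed there, with Map2 (0.25), Elavl4 (0.32) and Rbfox3 (0.12) higher and Elavl3 (-0.29) lower. In the second knockdown the sums were 32484 to 40437 in shLuc and 26819 to 30038 in Tet2 KD, without overlap, with Tubb3 lower by -0.44 and Elavl3 higher by 0.40. Tubb3 made up most of these sums, with means of 30523 in shLuc and 22513 in Tet2 KD. The other neuronal markers did not change, with Rbfox3 (0.39) higher and Map2 (-0.31) and Elavl4 (-0.16) lower. Other cells were present: astrocyte markers (6 genes) summed to 12676 to 21899.6 in shLuciferase and 13104 to 18575 in libraries labelled shTet2, while microglial markers summed to at most 46.3, with Itgam at 0 in both groups. The summed vascular markers were lower in both knockdowns without overlap (270.8 to 639.6 against 115.8 to 227.5 in the first, 157.9 to 261.1 against 70.6 to 149.0 in the second), and Dcn fell in both. Dcn made up most of these sums, with means of 357.4 and 130.5 in the first knockdown and 202.5 and 94.4 in the second. No other vascular marker changed in either, and their directions were mixed. Excitatory neuron markers summed to 9000.0 to 10517 in shLuc and 5988 to 8861 in Tet2 KD, with Camk2a lower by -0.36, Neurod6 by -0.54, Slc17a7 higher by 0.69, and GABAergic Gad2 higher by 0.44. Under overexpression GABAergic markers summed to 7276 to 8675 in synGFP and 25307 to 31360.4 in Tet2 OE, with Gad1 and Gad2 higher, Slc32a1 and Sst lower and Vip at 0 in every Tet2 OE library. Astrocyte markers spread from 50283 to 158291 in synGFP and from 129642 to 153787 in Tet2 OE. Neuronal markers summed to 35683 to 70028 in synGFP and to 42928 to 52854 in Tet2 OE. Every astrocyte sum of Tet2 OE was above every neuronal sum. The lists hold different genes, so these sums do not give shares of cells. Map2 had the highest mean of the neuronal markers in synGFP (43176) and a lower one in Tet2 OE (16635), without passing (-1.37, adjusted p = 0.0843). Elavl4 rose (1.98, adjusted p = 0.0128). Elavl3 (1.34) and Rbfox3 (0.76) were higher and Tubb3 (-0.28) lower, without passing. The astrocyte genes Aqp4 (3.31, adjusted p = 0.000108) and Slc1a2 (1.84, adjusted p = 0.0326) and the oligodendrocyte lineage gene Pdgfra (2.07, adjusted p = 0.0169) rose there. Summed oligodendrocyte markers (602.2 to 970.3 in synGFP, 1382 to 2261 in Tet2 OE) and vascular markers (346.8 to 588.6 and 781.3 to 801.4) did not overlap. Flt1 made up most of the vascular sums (means of 314.3 in synGFP and 682.7 in Tet2 OE), and no vascular marker changed there. Means of Flt1 and Dcn were higher in Tet2 OE, and those of Cldn5, Pecam1 and Col1a1 were lower. The part of these shifts in the changes of the complexins, synaptotagmins and Napb was not tested.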

How the data were processed

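Polyadenylated RNA was sequenced in 37 libraries, and the authors deposited 1 table per experiment. The submitters' processing notes name the tools STAR, RSEM and DESeq2 and the build mm10, while versions, gene annotation and the strand setting of counting are not given in the sources used here. The deposited signal of each library is a normalized count, and its values were whole multiples of 1 step (100.0% within 0.01 reads), from which reads were recovered. Each table also holds the DESeq2 columns of the authors, per the file headers: a log2 fold change with its error, a deposited Wald score, and a deposited p-value, raw and adjusted. For nuclei the sign of the deposited log2 fold change was turned, as it was control over treated.

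Columns were mapped to groups by name. Column numbers and sample titles differ for the second knockdown and for overexpression, so a library is named by its column's number. Within each experiment log2(normalized count + 1) of genes with a mean of 0.5 or more was tested with limma 3.58.1 (trend, two-sided, Benjamini-Hochberg over all genes, R 4.3.3). The difference between knockdowns came from 1 limma fit with a term per table. Tet2 had an exact two-sided permutation test. Alternatives were edgeR 4.0.16, DESeq2 1.42.0, TMM factors, library totals, pseudocounts of 0.5 and 4, other filters (none, or a mean of 10), the authors' table, a replicate block and leaving out each library. The fits were tested on simulated data. Exon lengths came from GENCODE and promoters from RefSeq (GRCm38.p6).

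All 10 members are named. Other genes of each list are named up to 3 per list and experiment, by the smallest p among those that changed, and for Cplx1, Syt1 and Napb the 3 most alike genes with a mean of 50 or more in all 4 tables; a few genes that these rules pick are not reported here. Members and lists were chosen with earlier results of these data known.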

Additional observations from a re-analysis of the deposited data

Results flagged for a closer look

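Syt7 in shLuc library 1 of the second knockdown stood at 121.3 normalized counts, below the other 5 shLuc libraries, which lay between 136.9 and 145.8. Its gap to the nearest library was large for the range of the group by Dixon's criterion. Of 50 combinations of a gene and a group, chance flags about 1 in 20, and 1 was flagged.

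The change of Cplx1 differed between the knockdowns by 0.88 on the log2 scale, second minus first (limma, adjusted p = 0.0143), with log2 changes of -0.75 and -1.63. All 6 treated libraries were below all 6 controls in both.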

How the results depend on the processing

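The count of members that changed was 0 in nuclei under all 16 alternatives. It ranged from 3 to 5 in the first knockdown, and it was 7 with library totals in the second knockdown and 5 to 8 when a library was left out, with 5 without shLuc library 3 or 7 or Tet2 KD library 12. Under overexpression it was 4 with library totals, 5 with DESeq2, 5 in the authors' deposited table and 0 to 3 when a library was left out, with 0 without synGFP library 5 (Cplx1 and Syt7 lost). The count over all genes there was 1386 higher and 844 lower, 861 and 1803 with library totals, 1853 and 2204 with DESeq2, 1029 and 453 without synGFP library 4 and 554 and 88 without synGFP library 5. In the first knockdown it was 120 and 234, and 362 and 484 with DESeq2. In nuclei DESeq2 called 33 and 63 genes. Of the other vesicle release genes, DESeq2 called 3 higher and 8 lower in the first knockdown (1 and 5 by limma) and 17 and 9 under overexpression (13 and 6 by limma), where TMM factors gave 14 and 2. The count of members that differed between the knockdowns was 1 to 2, with 2 (Syt2 added) without shTet2 library 6.

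Replicate numbers did not pair the libraries: in the first knockdown deviations of same-numbered libraries correlated at -0.14 to 0.06, and 1 of 6 libraries matched its own number best, and under overexpression at 0.04 and -0.02. With the replicate block 3 members changed in the first knockdown and 0 under overexpression, where only 2 numbers are shared; over all genes the block left 57 higher and 149 lower in the first knockdown and 0 under overexpression. The other experiments share no numbers in their columns.

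Signs reversed for Cplx3 in nuclei (-0.0137 with DESeq2 and in the authors' deposited table, -0.43 to 0.53 when a library was left out) and for Syt11 under overexpression (-0.53 with library totals, -0.33 to 0.58 when a library was left out). When a library was left out, they also reversed for Syt1 (-0.0021 to 0.14 in the first knockdown, -0.10 to 0.0057 in the second), Syt4 (-0.0751 to 0.20, -0.0457 to 0.15 and, for the difference between the knockdowns, -0.15 to 0.12), Syt5 under overexpression (-0.55 to 0.18), Syt7 (difference, -0.37 to 0.004), the Cplx1 to Cplx2 ratio in nuclei (-0.24 to 0.0667) and Tet2 in the first knockdown (-0.0589 to 0.36). None of these gene changes passed the main test, and the ratio was given as a description only. The cause was not tested.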
